A study of Arabidopsis thaliana with 8 samples.

Results

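The genes described here are 9 genes of chromosome 1 of *Arabidopsis thaliana* whose transcripts read low in inflorescences of 2 of 4 plant groups, T14 and HET. They are 2A6 (AT1G03410), AT1G21770, AT1G23570, AT1G23960, the F-box gene copies AT1G24800 and AT1G25150, ECS1 (AT1G31580), AT1G65370 and AT1G73490. They were read by 9 of the 22810 probe sets of the Affymetrix ATH1 array, since 2A6 has 2 probe sets and the F-box copies share 1. The genes were chosen from these arrays for their low values in T14 and HET. Those values, and the differences from CON and T13 that go with them, are therefore given as a description without a test.

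RNA came from inflorescences of accession ws plants at growth stage 6.0, 10 of which were pooled after growth under 16 h of light at 18 °C in a greenhouse. Each of the 4 groups has 2 arrays. T14 carries a T-DNA insertion in AT1G69690 (TCP15), HET is heterozygous for insertions at both AT1G69690 and AT3G47620 (TCP14), T13 carries an insertion in AT3G47620, and CON is the control, for which the labels name no modification. The labels give neither the zygosity of T13 and T14 nor the parents of HET, and each insertion is represented by a single line, so the insertion and any other difference of its line cannot be told apart. Whether the paired arrays of a group read separate plant pools is not stated, so the spread that p-values measure here, that between arrays, may be only technical. Only HET replicate 2 has a title that calls it a repeat, without saying of what. Replicate numbers here follow the order of the titles.

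TCP14 and TCP15 are related plant transcription factors. F-box proteins are the substrate-recognition subunits of SCF ubiquitin ligases, which mark proteins for breakdown, and the family is very large in Arabidopsis, where many members lie in repeated stretches of near-identical copies. ECS1 encodes a cell wall-associated protein and is known for expression that depends on the accession. The probes of the ATH1 array were designed on the sequence of accession Columbia, while these plants are labelled ws. A probe set reads fewer molecules where the plant makes less transcript, and it also reads less where the plant's sequence differs from the probes.

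Values are intensities on a linear scale, and differences are on the scale of log2(intensity + 16), which understates the change of dim genes. The 25th percentile of an array lay between 16.8 and 20.8 over the 8 arrays. Near absence here means an intensity under that percentile on the array concerned, because the files hold no detection calls. As a further guide to an empty probe set, 27 control probe sets for bacterial genes had a median between 2.3 and 7.2 on each array. The 5' GAPDH control read 0.345 of the 3' one on HET replicate 1 and between 0.0639 and 0.129 of it elsewhere, a difference in RNA quality or labelling whose part in the results was not tested.

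TCP15 itself was read at 86.0 and 68.8 in T14, at 188.2 and 221.8 in HET, at 205.9 and 204.1 in T13, and at 198.2 and 244.0 in CON. Its T14 arrays lay below the other 6, and its HET arrays lay within or near the range of T13 and CON. The genes described next were low in T14 and HET alike, so their order of groups is not that of TCP15. TCP14 was not analysed here, because no probe set carries its name, so the insertion of T13 is unchecked.

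AT1G23960 was the only gene of the set that was near absent on all 4 low arrays, as were 0.0465% of all kept probe sets. Kept probe sets reached the 40th percentile of their array on at least 2 arrays. One near absent on all T14 and HET arrays can be kept only through CON and T13, so nothing is read from that share. It was read at 2.5 and 5.7 in T14, at 3.9 and 5.7 in HET, at 68.6 and 51.2 in T13, and at 100.3 and 100.2 in CON. The T14 and HET values fall between the 5.3 and 12.0 percentile of their arrays, in the range of the bacterial controls, while both CON arrays stood at the 67.4 percentile. The lowest CON or T13 array exceeded the highest T14 or HET array by 1.63 on the log2 scale, the widest gap of the set. The mean of T14 was 4.09% of the CON mean and that of HET was 4.79%.

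The F-box copies were also low in T14 and HET. Their probe set reads 5 loci, AT1G24800, AT1G24881, AT1G25055, AT1G25150 and AT1G25211, and cannot say which of them was transcribed. It gave 45.3 and 40.0 in T14, 36.9 and 114.0 in HET, 253.2 and 249.1 in T13, and 474.0 and 304.5 in CON. The 2 HET arrays differed more from each other than the 2 T14 arrays did, and the brighter of them, HET replicate 2, was at the 71.2 percentile of its array. None of the 4 low arrays was near absent for this probe set.

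A second probe set of the same stretch of chromosome 1 was also low in T14 and HET. It reads AT1G24822, AT1G24996 and AT1G25097, which alternate with the F-box loci in gene order (it was singled out for its values). Its intensities were 40.0 and 27.8 in T14, 10.6 and 72.7 in HET, 271.9 and 275.9 in T13, and 349.9 and 179.0 in CON. Its lowest CON or T13 array exceeded its highest T14 or HET array by 1.14 on the log2 scale, against 1.03 for the F-box probe set. A further probe set of the stretch, which reads AT1G24851, AT1G25025, AT1G25112 and AT1G25180, was between 0.7 and 2.2 on all 8 arrays and so shows no difference either way.

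ECS1 was read at 30.0 and 17.4 in T14, at 20.0 and 18.5 in HET, at 75.6 and 62.9 in T13, and at 328.0 and 81.1 in CON. T14 replicate 2 and HET replicate 2 fell under the 25th percentile, and T14 replicate 1 and HET replicate 1 lay just above it, at the 32.4 and 28.3 percentiles. CON replicate 1 was far above all other arrays, 4.04 times CON replicate 2, so the CON mean of 205 ± 175 (SD, n = 2) rests on that array. Without it, CON replicate 2 was still 2.7 times the highest T14 or HET array. All 8 arrays are labelled ws. The labels offer no second accession to set these values against. A sequence difference shared by all ws plants would be common to all groups. Whether T14 and HET carry sequence of another accession at ECS1 or at any other gene of the set was not tested. Such a polymorphism and an effect of the insertions cannot be told apart here. The values per probe that could show a mismatch at single probes were not analysed here.

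The remaining genes were reduced in T14 and HET without near absence. AT1G65370, a member of the TRAF-like family, had 108.2 and 94.8 in T14, 63.7 and 99.8 in HET, 206.7 and 266.6 in T13, and 438.6 and 244.4 in CON. AT1G73490, which encodes a protein with an RNA recognition motif, had 38.4 and 50.1 in T14, 51.5 and 37.0 in HET, 151.1 and 103.4 in T13, and 292.8 and 122.9 in CON. In both genes every T14 and HET array lay below every T13 and CON array, and CON replicate 1 was the brightest of all. AT1G21770 had 66.7 and 93.4 in T14, 57.2 and 98.6 in HET, 173.8 and 195.7 in T13, and 292.3 and 189.7 in CON. AT1G23570 had 46.6 and 98.6 in T14, 79.4 and 95.7 in HET, 230.5 and 172.1 in T13, and 295.3 and 133.9 in CON. Its gap was the narrowest of the 8 kept probe sets of the set, 0.39 on the log2 scale.

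2A6 encodes an enzyme of the 2-oxoglutarate-dependent dioxygenase family, and its 2 probe sets disagreed. The brighter one was read at 24.7 and 37.8 in T14, at 22.1 and 31.5 in HET, at 84.7 and 108.8 in T13, and at 92.0 and 75.8 in CON, with a gap of 0.77 on the log2 scale. The dimmer one was read at 12.2 and 15.1 in T14, at 15.6 and 25.7 in HET, at 28.3 and 40.7 in T13, and at 21.5 and 13.4 in CON. In the dimmer probe set T14 and HET overlapped CON, both T14 arrays, HET replicate 1 and CON replicate 2 were near absent, and the probe set did not pass the filter on low values. The low reading of 2A6 in T14 and HET against CON thus rests on 1 of its 2 probe sets. Against T13, all T14 and HET arrays were lower in both probe sets.

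**Figure D1:**
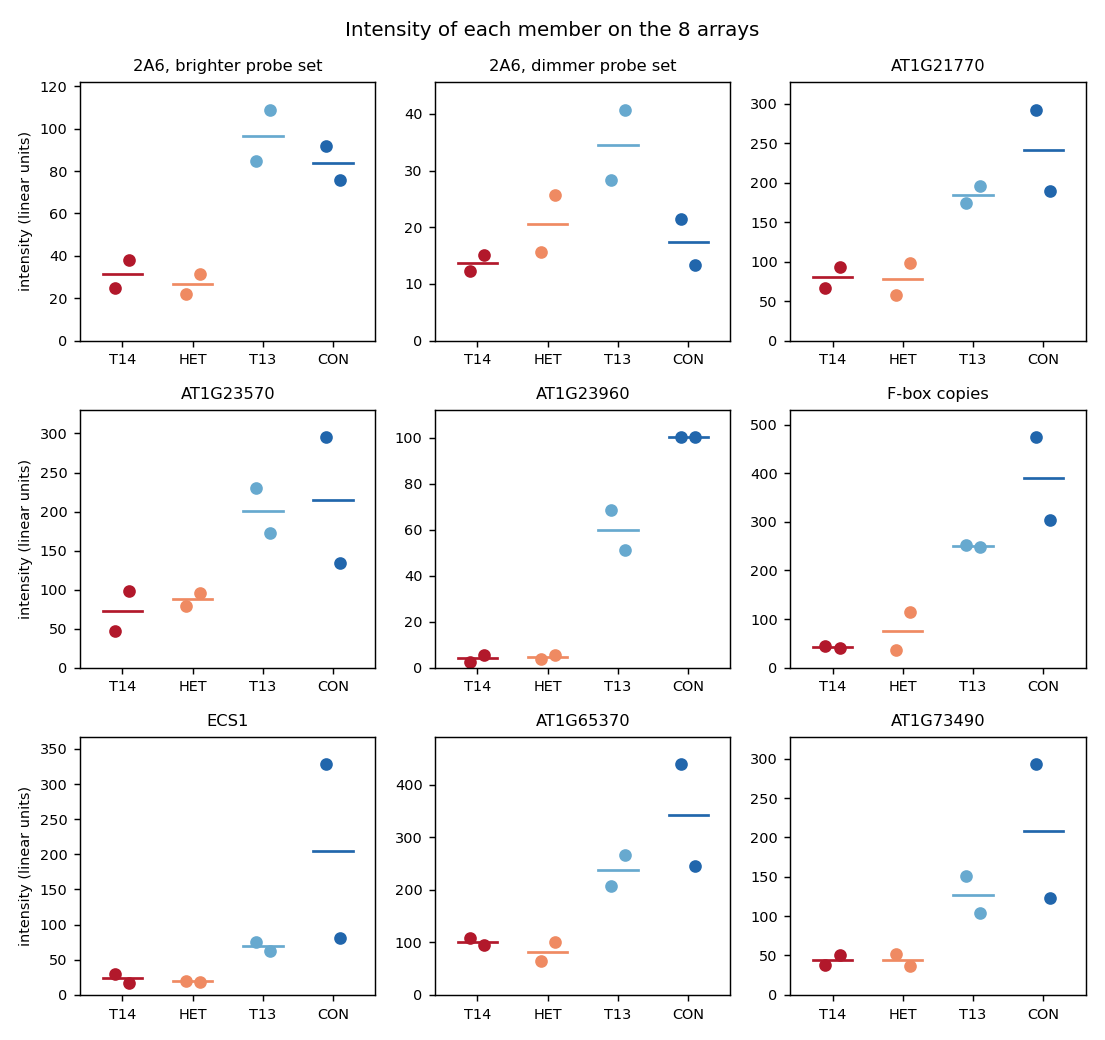
Linear intensity of the 9 probe sets on the 8 arrays, with a panel per probe set and its own vertical axis from 0; points are arrays and lines are the means of the 2 arrays of T14, HET, T13 and CON. AT1G23960 alone sits near 0 on all 4 T14 and HET arrays. Only in the dimmer 2A6 probe set do T14 and HET arrays overlap those of CON, and there both T13 arrays lie above them.

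In all, 8 of the 9 probe sets passed the filter on low values, and in those 8 every T14 and HET array lay below every CON and T13 array. Over all 15045 kept probe sets, 1.48% had that order. The genes were chosen for it, so nothing is read from the comparison. AT1G23960, ECS1 and the brighter 2A6 probe set also passed the filter through CON and T13 arrays alone. With a gap of at least 0.5 on the log2 scale there were 14 probe sets, 0.0931% of those kept, and 7 of them belonged to the set. Apart from these and the second probe set of the F-box stretch, the 14 held DI21 (AT4G15910), AT5G48760, AT1G54260, 1 probe set that reads AT5G05040 and AT5G05060, and 2 unnamed probe sets. The opposite order, with T14 and HET above CON and T13 by at least 0.5, was found in 1 probe set.

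The mean difference of T14 and HET from CON and T13 ran from -2.22 for the F-box copies to -1.21 for AT1G23570, with a median of -1.49 over the 8 probe sets, against -0.01 over all kept probe sets. It was -2.20 (SE 0.209) for AT1G23960, and -1.75 (SE 0.314) for ECS1. The second probe set of the F-box stretch was lower than any of the set, at -2.50. Of the other kept chromosome 1 probe sets with 1 gene, the lowest was AT1G54070, at -1.05. Over all chromosomes, 7 other kept probe sets were at or below the value of AT1G23570.

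**Figure D2:**
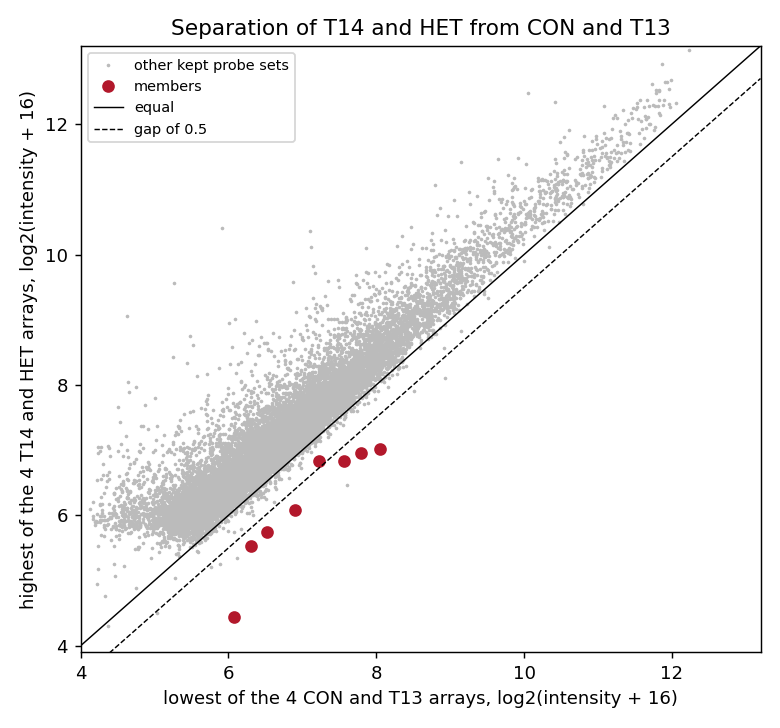
Each point is a kept probe set, with the lowest of its 4 CON and T13 arrays on the horizontal axis and the highest of its 4 T14 and HET arrays on the vertical axis, both as log2(intensity + 16). Points under the solid line have all T14 and HET arrays below all CON and T13 arrays; of the 8 members in red, 7 lie beyond the dashed line, which marks a gap of 0.5.

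HET was next set against T14. The genes were chosen as low in both groups, which limits how far the groups can differ, so the values are a description and the calls bear on nothing further. limma called 0 of 8 probe sets, and 0 had an unadjusted p under 0.05. Over all kept probe sets, 0.97% were called, 0.731% lower and 0.239% higher in HET, and 9.81% had an unadjusted p under 0.05. The log2 difference of HET from T14 had a median of -0.03 over the set, the same as over all kept probe sets. AT1G23960 differed by 0.05 (interval -0.59 to 0.70) and AT1G73490 by 0.00 (interval -0.72 to 0.71), where intervals are 95% and come from the limma fit. The F-box copies had the largest value, 0.50 (interval -0.26 to 1.27; limma adjusted p = 0.678), with the higher HET level coming from HET replicate 2. These intervals still allow differences of about the size of the interval bounds, so equal levels were not shown.

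HET was also set against the midpoint of the single-gene lines, taken as the mean of the T13 and T14 means on the linear scale. Its level was below that midpoint in all 8 kept probe sets, and in each of them both HET arrays were below it. Over all kept probe sets, 57.1% had a HET mean below the midpoint and 41% had both HET arrays below it. AT1G23960 averaged 4.8 ± 1.27 in HET (SD, n = 2), which is 15% of its midpoint. ECS1 stood at 41.4% of its midpoint, 2A6 at 41.9%, AT1G65370 at 48.4%, the F-box copies at 51.4%, AT1G73490 at 51.6%, AT1G21770 at 58.8% and AT1G23570 at 63.9%. The median over all kept probe sets was 95.9%. The low HET values were part of the choice of genes, so these shares are a description.

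**Figure D3:**
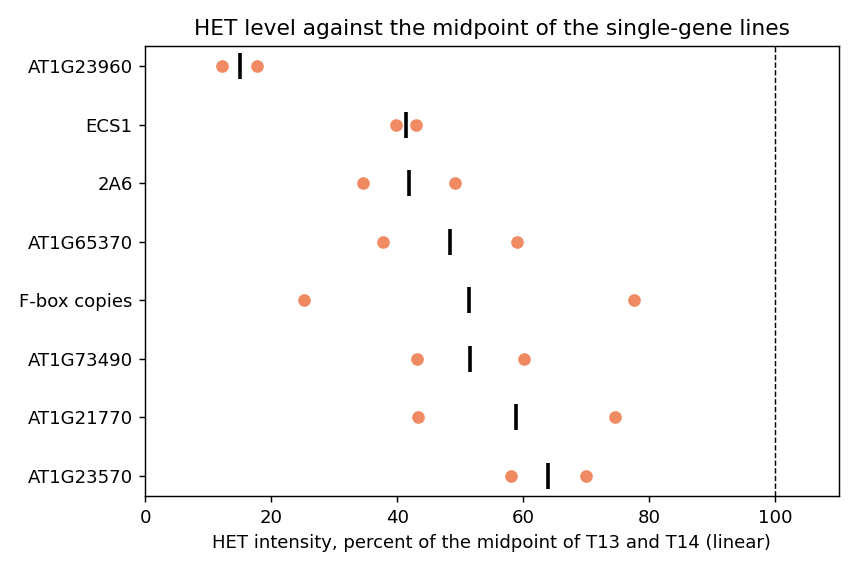
HET intensity as a percent of the midpoint of T13 and T14 on the linear scale, for the 8 kept probe sets; points are the 2 HET arrays, bars their mean, and the dashed line marks the midpoint. All 16 points lie left of the line, those of AT1G23960 farthest.

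T13 was then compared with CON, the groups in which these genes read high. The CON arrays are the ones that the choice of genes was made against, so a CON level that happened to be high favours a negative value here. The values are likewise a description, and the calls bear on nothing further. limma called 0 of 8 probe sets, against 0.592% of all kept probe sets (0.585% lower and 0.00665% higher in T13). An unadjusted p under 0.05 was found in 1 of the 8, ECS1, and in 5.99% of all kept probe sets. ECS1 averaged 69.2 ± 8.98 in T13 and 205 ± 175 in CON (SD, n = 2 each), a log2 difference of -1.10 (SE 0.444, limma adjusted p = 0.771). Without CON replicate 2 the value was -2.02, and without CON replicate 1 it was -0.19, these being the lowest and highest values of 17 alternatives. Each of them rests on 1 CON array. AT1G23960 averaged 59.9 ± 12.3 in T13 and 100 ± 0.0707 in CON (SD, n = 2 each), a log2 difference of -0.62 (SE 0.295, limma adjusted p = 0.836). Values were negative in 7 of 8 probe sets, with a median of -0.50, where the median of all kept probe sets was 0.05. The exception was 2A6, at 0.17. In 3 probe sets both T13 arrays lay below both CON arrays, an order found in 15% of kept probe sets.

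The genes were chosen against the CON arrays, which favours a bright CON array, so the CON values of this paragraph are a description. CON replicate 1 was the brighter CON array in 8 of the 8 kept probe sets, against 51.6% of all kept probe sets. AT1G23960 read nearly the same on both, 100.3 and 100.2. The ratio of CON replicate 1 to CON replicate 2 had a median of 1.68 over the set and 1.01 over all kept probe sets. The scanner background average moved with the same order. It was 84.90 and 85.12 in T14, 86.81 and 83.50 in HET, 98.49 and 111.86 in T13, and 112.87 and 87.36 in CON. CON replicate 2 has a background close to those of T14 and HET, and on it the 8 probe sets read from 1.36 to 17.6 times the highest T14 or HET array. With the background average as a term in the fit, the difference of T14 and HET from CON and T13 was -2.30 for AT1G23960 and -1.99 for the F-box copies. For ECS1 it was -0.83 (-1.75 without the term), for AT1G65370 -0.98 (-1.47), for AT1G73490 -1.01 (-1.51) and for AT1G23570 -0.76 (-1.21). For the brighter 2A6 probe set it was -1.05 (-1.24), and for AT1G21770 -0.955 (-1.27). Every T14 and HET array had a lower background than every CON and T13 array. Within groups the background differed mostly between the CON arrays and between the T13 arrays. The term therefore overlaps with the difference it adjusts, and the part of the background in these values was not tested.

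The members are spread along chromosome 1. In gene order, 2A6 is protein-coding gene 259 of 7156, AT1G21770 is 2215, AT1G23570 is 2401, AT1G23960 is 2438, AT1G24800 is 2525, ECS1 is 3148, AT1G65370 is 5526 and AT1G73490 is 6378. TCP15 lies between the last 2 of these, with 462 protein-coding genes between it and AT1G65370 and 388 between it and AT1G73490. Between TCP15 and 2A6 there are 5729. The first to the last of the 5 F-box loci span 21 protein-coding genes.

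Loci beside the members were taken from probe sets of 1 gene and, for the F-box copies, from outside their stretch. The 3 nearest such loci on each side of each member gave 49 probe sets of 48 loci, from 1 to 23 genes away, of which 29 passed the filter. Their difference of T14 and HET from CON and T13 had a median of -0.03 and ran from -0.51 to 0.41, against -2.22 to -1.21 for the set. The set was chosen for this difference and the neighbours were not, so nothing is read from that contrast. The second probe set inside the F-box stretch, which reads 3 loci, is not among the neighbours and stood at -2.50. In T14 against CON, 2 of the 29 had an unadjusted p under 0.05, a share not given for all kept probe sets. limma called 0 of the 29 there, where 0.0199% of kept probe sets were called lower. In HET against CON it called 1 of 29, AT1G25240 beside the F-box stretch, where 1.07% of kept probe sets were called, 1.02% lower and 0.0465% higher. AT1G25240 had 78.7 and 89.0 in T14, 24.0 and 30.7 in HET, 53.2 and 48.6 in T13, and 154.3 and 85.7 in CON. It fell by 1.61 on the log2 scale in HET against CON (limma adjusted p = 0.00643), but did not pass without CON replicate 1 (-1.24, adjusted p = 0.0854) or HET replicate 1 (-1.50, adjusted p = 0.113), nor without the filter (adjusted p = 0.0519) or with the scanner background as a term (adjusted p = 0.106), and its value ran from -2.04 to -1.24 over 17 alternatives.

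Examples lie close to members. AT1G23980, 3 genes after AT1G23960, had 62.8 and 59.5 in T14, 33.3 and 42.3 in HET, 45.9 and 43.7 in T13, and 40.5 and 32.5 in CON. AT1G73480, the gene before AT1G73490, had 116.5 and 82.2 in T14, 81.6 and 93.9 in HET, 112.0 and 70.7 in T13, and 107.6 and 89.5 in CON. AT1G21780, the gene after AT1G21770, had 50.6 and 38.5 in T14, 44.9 and 40.9 in HET, 37.9 and 59.6 in T13, and 50.2 and 34.0 in CON. In AT1G73480 and AT1G21780 the arrays of T14 and HET overlapped those of T13 and CON, while both T14 arrays of AT1G23980 lay above the other 6. Of the 29 kept neighbours, 1 had all T14 and HET arrays below all CON and T13 arrays. It was AT1G23890, with a gap of 0.11 on the log2 scale.

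**Figure D4:**
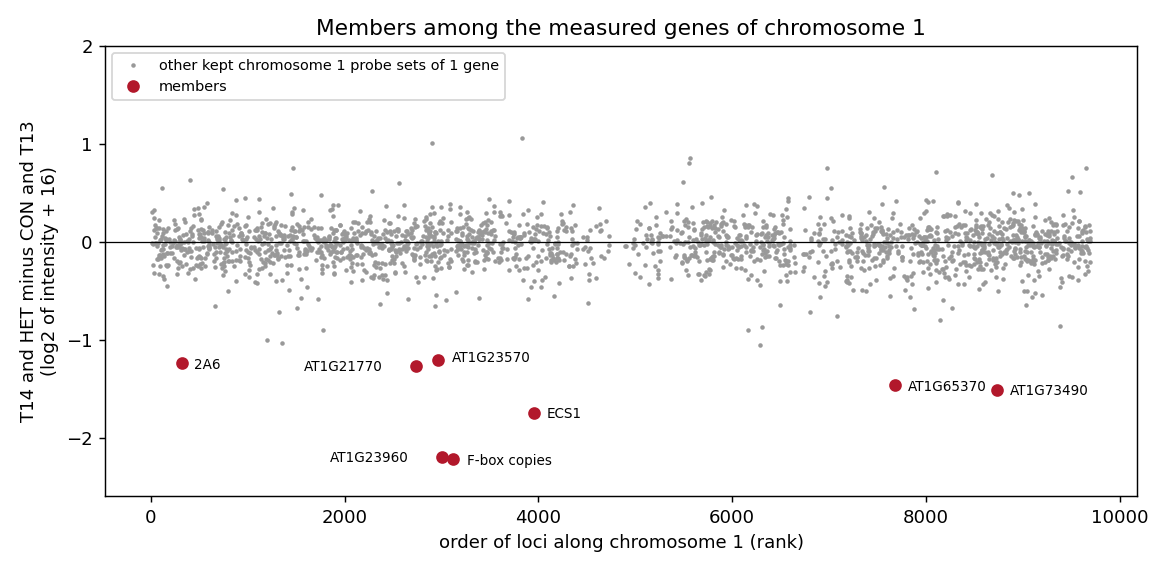
Difference of T14 and HET from CON and T13, on the log2(intensity + 16) scale, against the order of annotated loci along chromosome 1, for kept probe sets of 1 gene (grey) and the 8 kept probe sets of the set (red), the F-box copies drawn at the first of their loci. The members lie between -2.22 and -1.21 at scattered places; the lowest other 1-gene probe set, AT1G54070, is at -1.05.

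Chromosome 1 held 43 of 2154 other kept probe sets of 1 gene, 2%, in which all T14 and HET arrays were below all CON and T13 arrays. On the other chromosomes the share was 0.909% for chromosome 2, 1.09% for chromosome 3, 0.923% for chromosome 4 and 1.73% for chromosome 5. These shares are given as a description and were not compared by a test.

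The genes whose levels over the 8 arrays were most like the mean of the 8 kept probe sets were found by Pearson r on the log2 scale, among 1643 kept probe sets of 1 gene with a range of at least 1. The closest were AT1G54260 (r = 0.971), AT5G48760 (r = 0.949), AT1G11280 (r = 0.930), AT1G24240 (r = 0.896), AT5G15980 (r = 0.895) and DI21 (r = 0.894). Then came AT5G45960, AT1G66540, AT1G10110 and AT1G13160, with r from 0.845 to 0.867. Of these 10, 6 lie on chromosome 1. Kept probe sets of 1 gene numbered 2161 on chromosome 1, 1210 on chromosome 2, 1657 on chromosome 3, 1192 on chromosome 4 and 1961 on chromosome 5. The share of chromosome 1 among the 1643 is not given. The mean profile came from chromosome 1 genes chosen on these arrays, so nothing is read from the 6. The points share the 4 group means, so these r values describe the order of groups and carry no p. AT1G54260 had 15.8 and 12.8 in T14, 17.8 and 20.8 in HET, 43.3 and 40.1 in T13, and 53.5 and 38.4 in CON. AT5G48760, on chromosome 5, had 201.0 and 252.7 in T14, 248.7 and 261.1 in HET, 470.4 and 474.8 in T13, and 486.4 and 476.7 in CON.

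Relatives of the members were measured less completely. Counts of genes with a probe set, here and for the markers below, are of named probe sets. Of the 22810 probe sets, 8794 carry no gene name, so a gene not counted may still be on the array. Of 15 dioxygenase genes related to 2A6, 14 had a probe set and 5 passed the filter. limma called 0 of these 5 in T14, HET or T13 against CON, where 0.0199%, 1.07% and 0.592% of all kept probe sets were called. At such shares, 0 calls among so few probe sets say little, here and for the other relatives. An unadjusted p under 0.05 was found for 1, 0 and 0. The share over all kept probe sets was 5.99% in T13 and is not given for T14 and HET. The median log2 differences were 0.17, 0.11 and 0.08, against 0.03, 0.00 and 0.05 over all kept probe sets. AT2G25450 of this list had 298.7 and 192.1 in T14, 172.0 and 169.2 in HET, 123.6 and 224.5 in T13, and 134.6 and 128.0 in CON, so its T14 arrays were not below those of CON. Of 26 TRAF-like genes related to AT1G65370, 9 had a probe set and 1, ZW9, passed the filter, at a log2 difference from CON of 0.09 in T14 and -0.32 in HET, and limma did not call it in T14, HET or T13 (0 at an unadjusted p under 0.05). Of 13 genes near AT1G23570 in locus number, 10 had a probe set and 3 passed the filter. limma called 0 of these 3 in any of the 3 groups, with 0 at an unadjusted p under 0.05. Of 12 salicylate and pathogen response genes, listed because ECS1 is pathogen-inducible, 1 had a named probe set and 0 passed the filter, so nothing was tested there.

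Markers of other cell types followed other orders. Of 17 late pollen markers, some of them picked from earlier results of these arrays, 10 had a probe set. Their summed intensity was 2310 and 3640 in T14, 595 and 609 in HET, 939 and 849 in T13, and 3490 and 3730 in CON. The pollen sum was thus low in HET and T13, while the genes described here were low in HET and T14. Since the list was partly picked on these arrays, its calls are no independent evidence of a direction. limma called 8 of the 8 kept pollen probe sets lower in HET, where 1.02% of all kept probe sets were called lower, 7 lower in T13, where 0.585% were, and 0 in T14, with 1 at an unadjusted p under 0.05. Without CON replicate 2 the counts in HET and T13 were 5 and 2. The 3 tapetum markers with a probe set, of 9, summed to 116 and 221 in T14, 1110 and 721 in HET, 520 and 530 in T13, and 387 and 426 in CON. limma called 1 of the 3 higher in HET, where 0.0465% of all kept probe sets were called higher, and 0 in T14 or T13. An unadjusted p under 0.05 was found for 2 in T14, 2 in HET and 1 in T13. The share over all kept probe sets was 5.99% in T13 and is not given for T14 and HET. Tapetum is the layer that feeds developing pollen, and its summed signal had HET highest and T14 lowest, while the genes described here were low in both. ATA27 and AT5G07230 carry that sum. The third marker, AMS, had 22.7 and 29.9 in T14, 39.0 and 44.9 in HET, 45.3 and 47.4 in T13, and 23.6 and 23.8 in CON. Its T14 level was thus near that of CON, and T13 was highest. RCA, the only leaf photosynthesis marker of 8 with a named probe set, was between 1922.1 and 3396.0 on all arrays. limma did not call RCA in any of the 3 groups (0 at an unadjusted p under 0.05). None of 9 floral identity genes had a named probe set, so the inflorescence label was checked only by the pollen and tapetum markers. In whole inflorescences, fewer cells of a type and less RNA per cell cannot be told apart, and the part of cell composition in the values of these genes was not tested.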

How the data were processed

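Total RNA was labelled with biotin and hybridised to ATH1 arrays, per the labels' protocols. The deposited table holds 1 linear intensity per probe set and array, made by software not given in the sources used here. Names came from GEO's platform annotation, updated to RefSeq TAIR10.1: of 22810 probe sets, 13513 had 1 gene, 503 several and 8794 none, and 13436 matched a locus tag. The table names no build, so only gene order is given.

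The members and lists were chosen with earlier results of these data known. No value was rescaled. After adding 16 and taking log2, 15045 probe sets that reached the 40th percentile of their array on at least 2 arrays were passed to limma 3.58.1 (R 4.3.3; intensity trend, 8 arrays, 4 residual and 7.39 prior degrees of freedom). Benjamini-Hochberg adjusted p under 0.05 was called. The 64 control probe sets were left out. Named genes were the members, TCP15 (the rule also held TCP14, not analysed here), the 3 nearest measured loci on each side, the 10 most alike and up to 4 per list. Alternatives covered pseudocount, filter, normalization, variance prior, arrays fitted, scanner background and each array left out. A planned search of promoters for a TCP element was not run, as no promoter sequence was used here. The number of arrays limits the precision.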

Additional observations from a re-analysis of the deposited data

Results flagged for a closer look

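In the brighter probe set of 2A6, both T14 arrays and both HET arrays lay below the CON mean, and both T13 arrays lay above it. The mean log2 differences from CON were -1.09 in T14, -1.23 in HET and 0.17 in T13. In the dimmer probe set, both T14 arrays lay below the CON mean and both T13 arrays above it, with mean log2 differences of -0.17 in T14 and 0.59 in T13, while HET averaged 118% of the CON mean on the linear scale. The differences of T14 and HET from CON were not tested, because the gene was chosen for them. T13 against CON was tested in the brighter probe set (limma adjusted p = 0.914). The dimmer probe set did not pass the filter and was not tested.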

How the results depend on the processing

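All 8 kept probe sets of the set had every T14 and HET array below every CON and T13 array under each of the 13 alternatives tried for this order, and the count of kept probe sets with a gap of at least 0.5 ran from 11 to 21. No value of T14 and HET against CON and T13 changed sign. The count called in T13 against CON was 89, and 46 without the filter; over the arrays left out it ran from 15 to 108. In HET against T14 it was 146, and 84 without the filter; over the arrays left out it ran from 61 to 155. No gene of the set was called in HET against T14 under any alternative. Since these values are small, signs turned: AT1G21770 was 0.020 and AT1G73490 0.089 with quantile normalization, and 0.029 and 0.079 with median centring. Leaving out an array turned the sign of HET against T14 for 2A6, AT1G21770, AT1G23570, AT1G23960, the F-box copies, ECS1 and AT1G73490 (-0.339 to 0.064, -0.378 to 0.269, -0.151 to 0.722, -0.062 to 0.168, -0.147 to 1.15, -0.384 to 0.077 and -0.178 to 0.171). In T13 against CON, AT1G23570 was 0.002 with a pseudocount of 1, and from -0.532 to 0.523 over the arrays left out, and AT1G73490 was from -1.128 to 0.024. The cause was not tested. Chosen after seeing the data were the fit with scanner background for T14 and HET against CON and T13, the fit of the arrays under 90, the order without the filter, and every alternative for AT1G25240 and the pollen counts. Among the latter arrays, where CON replicate 2 stands alone and is assumed to vary like the other groups, T14 against CON was -0.824 for AT1G23570 and -1.309 for ECS1, and HET against CON was -0.538 and -1.462. No paired analysis was possible because the labels give no replicate numbers.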
